A study of Mus musculus with 23 samples.

Results

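Neutrophil granule genes were followed in RNA sequencing libraries of whole mouse sciatic nerves (SNs). The group holds 10 genes chosen by name: Retnlg, S100a8, S100a9, Lcn2, Ngp, Camp, Ltf, Csf3r, Elane and Mpo. These are 10 of the 43068 genes listed for the crush libraries and of the 22880 genes listed for the mutant libraries. The crush experiment used wild-type C57BL/6J males, operated at 2 months of age, with buprenorphine for pain. It compared SNs at 3 days post crush injury (3 dpc, n = 4) with contralateral SNs of crushed mice (n = 4) and with SNs labelled as surgery controls without a crush (n = 3), so that both comparisons share the crushed SNs. The mutant experiment compared P0-CreERT2 -/+ Dicer1 flox/flox mice (Dicer iKO) and P0-CreERT2 -/+ Dgcr8 flox/flox mice (Dgcr8 iKO), each with an induced deletion in the microRNA-processing machinery, with P0-CreERT2 -/- controls of the same floxed genotype, at 3 months post tamoxifen (3 mpT, n = 3 in each of the 4 groups). Mutants and controls alike received tamoxifen, which was begun at 8 to 10 weeks of age, and all 12 mice were on the background labelled C57bl6.

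The CreERT2 recombinase is driven by a promoter that is active in myelinating Schwann cells (SCs), and recombination in leukocytes was not measured. Not every mutant animal of these lines is affected, and the mutants were selected beforehand for an altered nerve morphology. The comparisons ask which of these genes differ in whole nerve after an acute lesion and during a slow loss of myelin.

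Neutrophils are short-lived phagocytes that mature in the bone marrow and enter damaged tissue within hours to days. Their granule proteins are made in sequence during maturation: azurophil granule enzymes such as Mpo and Elane in promyelocytes, specific granule proteins such as Ltf, Camp, Ngp and Lcn2 later, while mature cells carry mainly mRNAs such as S100a8, S100a9, Retnlg and Csf3r. In a peripheral nerve, degeneration of the distal stump after a crush draws in neutrophils first and then monocytes, which become macrophages. Several of the 10 genes are not restricted to neutrophils: Lcn2 is made by epithelial and glial cells as well, and Csf3r, S100a8 and S100a9 by monocytes.

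Positions are from the GENCODE M21 annotation of GRCm38, and all 10 genes are protein-coding there. Retnlg (resistin-like gamma, a secreted protein) lies at chr16:48872621-48874496 on the plus strand, Csf3r (the receptor for the growth factor G-CSF) at chr4:126024550-126044440 on the plus strand, and Lcn2 (lipocalin 2, which binds iron-carrying siderophores) at chr2:32384633-32388252 on the minus strand. S100a8 (chr3:90668978-90670035, plus strand) and S100a9 (chr3:90692632-90695721, minus strand) encode the calcium-binding subunits of calprotectin and lie 22596 bases apart. Camp (cathelicidin, chr9:109847379-109849617, minus strand), Ngp (chr9:110419747-110423012, plus strand) and Ltf (lactoferrin, chr9:111019271-111042767, plus strand) lie in this order on chromosome 9, 570129 and 596258 bases apart. Elane (neutrophil elastase) is at chr10:79886247-79888215 and Mpo (myeloperoxidase) at chr11:87793581-87804413, both on the plus strand. Mpo is the only member overlapped by another annotated gene, Gm11505 on the opposite strand.

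RefSeq promoter sequences of GRCm38.p6, from 250 bases before to 50 bases after each gene's start, were found for all 10 genes. They were searched on both strands for letters of sites bound by C/EBP factors (TTGCNNAA), by PU.1 (GAGGAA) and by STAT factors (TTCNNNGAA), which act in granulocytes, and for a TATA box (TATAAA). The C/EBP letters were in 5 of the 10 promoters against 10.8% of 32851 promoters, the PU.1 letters in 6 against 28.3%, the STAT letters in 0 against 8.3% and the TATA letters in 2 against 13.6%. The 4 matches below belong to the 3 genes whose levels are described in full. They are written on the gene's own strand with the matched letters in capitals, and matches on the other strand appear as the reverse complement.
Retnlg, C/EBP letters (chr16:48872358-48872379, plus strand): agctTTCTGCAAggcattccag
Lcn2, C/EBP letters (chr2:32387938-32387965, minus strand): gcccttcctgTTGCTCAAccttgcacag
Lcn2, PU.1 letters (chr2:32387744-32387769, minus strand): ctctctgctcTTCCTCctccagcaca
Csf3r, PU.1 letters (chr4:126024563-126024588, plus strand): tccttcctgaGAGGAAggggctgtct
The Retnlg match begins 246 bases before the RefSeq start, the Lcn2 matches 216 and 20 bases before it and the Csf3r match 86 bases before it. These matches describe letters in a window and show no binding.

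The libraries held 5594859 to 12806066 counts, so that 3 counts corresponded to 0.236 to 0.511 CPM (counts scaled to a common library size) in the crush libraries and to 0.286 to 0.518 CPM in the mutant libraries. This value served as the detection limit, and it covers counting error only, because the reads carry no molecular identifiers. The 4 SC markers Sox10, S100b, Pmp22 and Mbp summed to between 858 and 28200 CPM in every library, so SC RNA was present throughout. Dicer1 was at 81.3 to 82.1 CPM in Dicer iKO and at 87.4 to 90.5 CPM in their controls. Dgcr8 was at 39.4 to 54 CPM in Dgcr8 iKO and at 35.4 to 41.8 CPM in their controls, and these sums over all transcripts do not single out the floxed exons. By real-time PCR, the paper reports lower mRNA of the deleted gene, and less of an abundant microRNA, in each mutant than in its controls. The library Dicer control 1 stood apart in its blood content, with 3750 CPM of erythroid transcripts against 78.5 and 306 CPM in the other Dicer controls. The labels name different library kits for the experiments, so levels are compared within an experiment only, and between experiments only the differences are.

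Retnlg was well above the detection limit in the lesioned nerves and near absent from the control nerves of the crush experiment. It had 112, 163, 149 and 227 counts (8.99, 13.3, 13.7 and 21.4 CPM) in the SNs at 3 dpc, 0 counts in each of the 4 contralateral SNs, and 2, 0 and 0 counts in the uncrushed SNs. All SNs at 3 dpc lay far above all control SNs. Relative to the contralateral SNs the increase was at least 50.9-fold, taking 3 counts per contralateral library as the limit (edgeR quasi-likelihood test, adjusted p = 1.13e-07, n = 4 and 4). Relative to the uncrushed SNs the ratio was 176 with a counting interval of 48.5 to 1455 (adjusted p = 5.03e-07), and it rested on 2 counts in the library Uncrushed 1, without which the uncrushed SNs held 0 counts. In bulk RNA of a nerve, fewer cells of a type and less RNA per cell cannot be told apart.

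Retnlg was detected in Dgcr8 iKO too, with 13, 20 and 12 counts (1.53, 1.91 and 1.4 CPM) against 0 counts in each of the 3 controls. This was at least 4.51-fold higher than the limit set by 3 counts per control library (edgeR quasi-likelihood test, adjusted p = 0.000564, n = 3 and 3). In Dicer iKO it had 0, 0 and 3 counts against 0, 0 and 0 in the controls and was too low to be tested across genes (exact permutation test, two-sided p = 1, where 0.1 is the smallest value possible). The difference between the mutant effects could not be estimated, because the control groups held no count. The expected counts of Retnlg were whole numbers to within 0.015 in 23 of 23 libraries, so that reads shared with another locus were not seen. Its relative Retnla, a macrophage product, was at 0.0917 to 1.69 CPM at 3 dpc and at 0.393 to 2.01 CPM in contralateral SNs.

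Csf3r was present in every library and was higher in 3 of the 4 lesioned or mutant settings compared. It was at 9.63, 13.5, 12.4 and 12.3 CPM at 3 dpc, at 6.22, 4.32, 6.32 and 6.46 CPM in contralateral SNs and at 7.19, 8.63 and 12.6 CPM in uncrushed SNs. The SNs at 3 dpc did not overlap with the contralateral SNs but did overlap with the uncrushed SNs. Csf3r rose 2.09-fold over the contralateral level (log2 fold change 1.06, SE 0.15, edgeR quasi-likelihood adjusted p = 1.78e-05). This value lies next to the 2-fold limit and fell below it, to 0.97 and 0.95 on the log2 scale, without the 3 dpc library 2 or without the contralateral library 2. Against the uncrushed SNs the log2 difference was 0.48 (SE 0.18, adjusted p = 0.0364), which did not reach the 2-fold limit.

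Csf3r differed far more in the mutants. It was at 18.4, 28.5 and 27.3 CPM in Dicer iKO and at 6.03, 1.85 and 1.76 CPM in the controls, and the groups did not overlap. The rise was 7.73-fold (log2 fold change 2.95, SE 0.44, edgeR quasi-likelihood adjusted p = 0.00549). The library Dicer control 1, the library with the high erythroid content, held the highest control value, and without it the log2 fold change was 3.76. In Dgcr8 iKO the levels were 20.2, 14.4 and 25.5 CPM against 1.53, 2.31 and 2.69 CPM in the controls. The groups were again separate, with a rise of 9.06-fold (log2 fold change 3.18, SE 0.29, adjusted p = 1.22e-05).

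Lcn2 went the opposite way in each of these settings. It was at 0.321, 0.815, 1.01 and 0.754 CPM at 3 dpc, at 2.17, 2.75, 3.91 and 1.95 CPM in contralateral SNs and at 4.23, 2.75 and 2.22 CPM in uncrushed SNs. Every SN at 3 dpc lay below every control SN. Lcn2 fell by 1.88 on the log2 scale against contralateral SNs (SE 0.34, edgeR quasi-likelihood adjusted p = 0.000206) and by 2.02 against uncrushed SNs (SE 0.38, adjusted p = 0.000524). The counts behind these values were low, with 33 counts over the 4 libraries at 3 dpc and 116 over the 4 contralateral libraries.

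In the mutants Lcn2 was at 0.666, 1.21 and 0.969 CPM in Dicer iKO against 3.45, 4.23 and 3.78 CPM in the controls. Every mutant value lay below every control value, and Lcn2 fell by 2.01 on the log2 scale (SE 0.34, edgeR quasi-likelihood adjusted p = 0.00853). In Dgcr8 iKO it was at 1.53, 1.53 and 1.52 CPM against 5.43, 7.62 and 7.36 CPM, again without overlap. It fell by 2.15 on the log2 scale (SE 0.28, adjusted p = 0.000128).

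**Figure D1:**
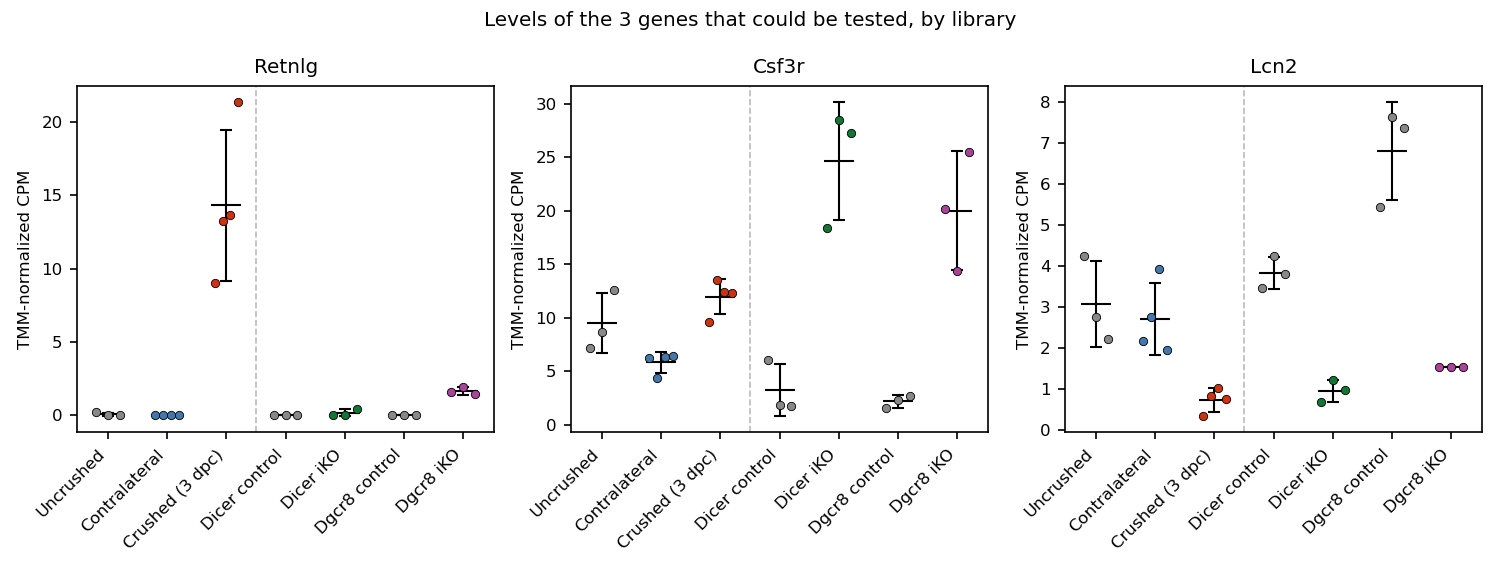
TMM-normalized CPM of Retnlg, Csf3r and Lcn2 in each library (points, one per nerve library), with the mean and SD of each group (bars). The dashed line separates the experiments. Retnlg is at 8.99 CPM or more in every SN at 3 dpc and at 0.18 CPM or less in every control SN of that experiment, whereas Lcn2 is lower in each lesioned or mutant group than in its controls.

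The other 7 genes were near or below the detection limit in most libraries, which is itself the main measurement for them. S100a8 had 4, 4, 6 and 5 counts at 3 dpc, 3, 1, 0 and 0 in contralateral SNs and 2, 0 and 0 in uncrushed SNs. Its counts at 3 dpc lay above all control counts, with a ratio of 4.42 to contralateral SNs (counting interval 1.47 to 17.9, exact permutation test on CPM, two-sided p = 0.0286, the smallest value possible with 4 against 4 libraries). Against uncrushed SNs the ratio was 5.13 (counting interval 1.24 to 45.4, exact permutation p = 0.0286). These p-values are not adjusted for the 7 genes. S100a9, its partner in calprotectin, had 3, 8, 4 and 4 counts at 3 dpc and 0, 2, 4 and 0 in contralateral SNs (exact permutation p = 0.114), and these values overlapped. The S100a9 ratio to contralateral SNs was 2.95 (counting interval 1.13 to 9.02).

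Mpo, which makes hypochlorous acid, had 11, 3, 1 and 7 counts at 3 dpc, 0, 0, 2 and 2 in contralateral SNs and 4, 1 and 5 in uncrushed SNs (exact permutation p = 0.114 and 0.971). Its counts at 3 dpc overlapped with those of both control groups. The Mpo ratio was 5.12 to contralateral SNs (counting interval 1.74 to 20.4) and 1.19 to uncrushed SNs (0.54 to 2.81). Such intervals cover counting error and not the spread between nerves. When no filter on low counts was applied, edgeR called S100a8 and Mpo higher at 3 dpc than in contralateral SNs, and S100a8 but not Mpo higher than in uncrushed SNs. Ltf, the iron-binding protein of specific granules, had 1 to 5 counts at 3 dpc, 1 to 8 in contralateral SNs and 1 to 10 in uncrushed SNs. Ngp (0 to 4 counts) and Camp (0 to 3 counts), further specific granule proteins, did not separate the groups of the crush experiment either, with exact permutation p-values between 0.171 and 0.914 for crushed SNs. Elane, a protease of immature cells, was at 0 counts in all 4 SNs at 3 dpc and at no more than 1 count in any library.

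In the mutant experiment S100a8 had 2, 3 and 2 counts in Dicer iKO against 0, 1 and 0, and 1, 1 and 7 counts in Dgcr8 iKO against 0, 1 and 0. The Dicer groups did not overlap, but 3 against 3 libraries cannot give an exact permutation p under 0.1, the value found. S100a9, Ngp and Elane had at most 1 count in any of these 12 libraries and Camp had 0 counts in all of them. Ltf had 0 to 4 counts, and Mpo had 0 counts in all mutants and 0 to 2 counts in controls. At this depth, differences in S100a9, Ngp, Elane, Camp, Ltf and Mpo were not detectable. For S100a8 the ratio to controls was 7.47 in Dicer iKO (counting interval 0.96 to 337). In Dgcr8 iKO it was 8.32 (counting interval 1.15 to 365), resting mostly on 1 library with 7 counts.

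**Figure D2:**
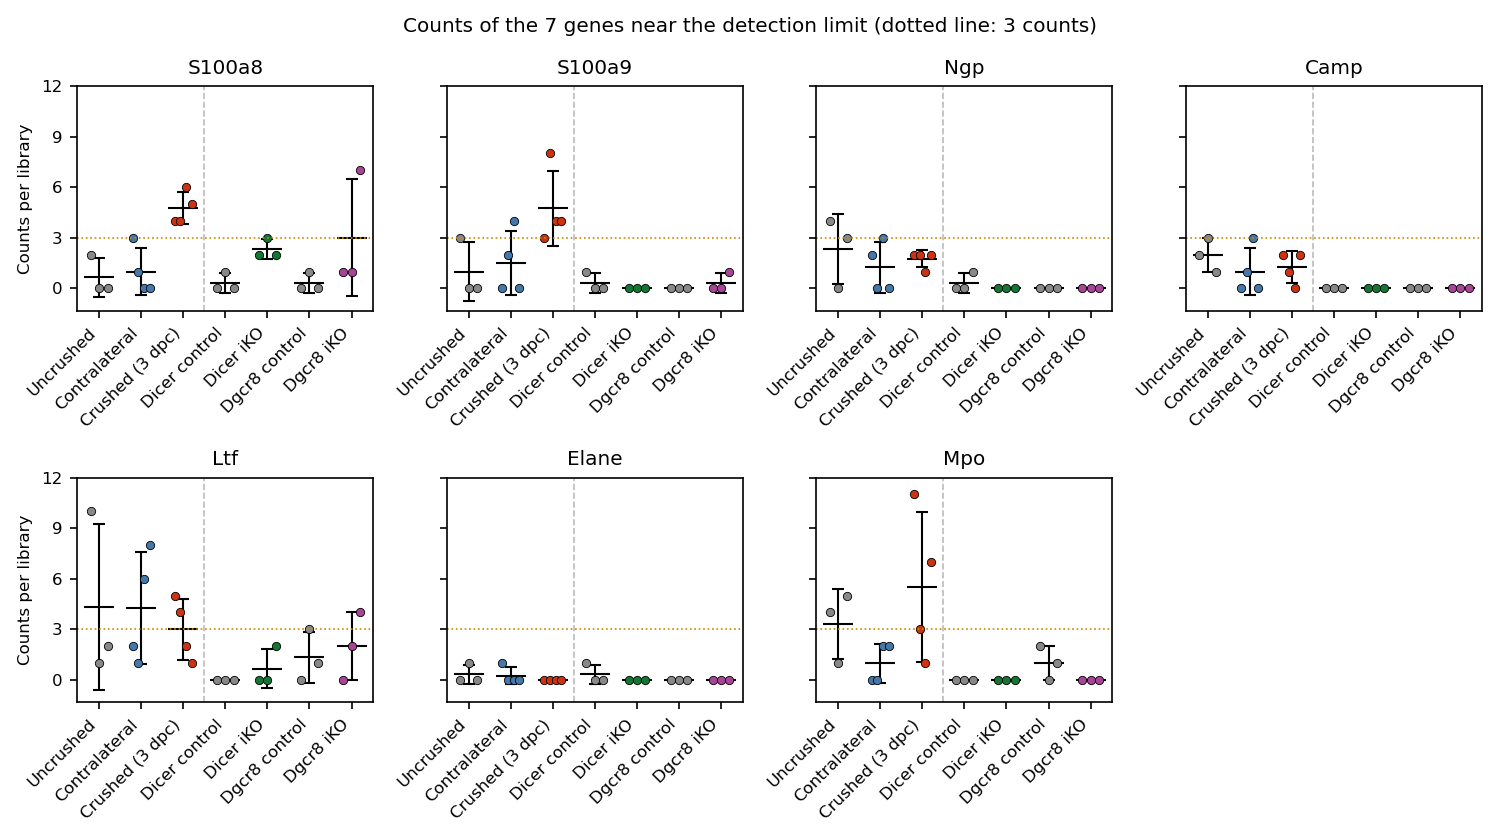
Counts per library (points) of the 7 genes near the detection limit, with the mean and SD of each group (bars) and the limit of 3 counts (dotted line). The dashed line separates the experiments. S100a8 has 4 to 6 counts at 3 dpc and at most 3 counts in each control SN, and no gene exceeds 11 counts in any library.

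TPM, a relative abundance that accounts for transcript length, was used to order the genes within a group. At 3 dpc Retnlg came first with 5.03 ± 1.91 TPM (SD, n = 4), followed by Csf3r with 0.725 ± 0.113 and S100a8 with 0.2 ± 0.0876. Retnlg and Csf3r did not overlap, whereas S100a8, S100a9 (0.177 ± 0.0763) and Lcn2 (0.168 ± 0.0947) did not differ beyond their spread. In contralateral SNs Lcn2 came first with 0.49 ± 0.152 TPM and Csf3r second with 0.28 ± 0.0356. In uncrushed SNs Lcn2 (0.343 ± 0.150 TPM, n = 3) and Csf3r (0.293 ± 0.0929) did not differ beyond their spread. Lcn2 led in Dicer controls (9.83 ± 1.26 TPM) and in Dgcr8 controls (16.3 ± 2.79), ahead of Csf3r. Csf3r led in Dicer iKO (16.1 ± 3.81 TPM) and Dgcr8 iKO (12.8 ± 3.34), so that the order of Lcn2 and Csf3r was opposite in mutants and controls.

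Counted over the whole group, 3 of the 10 genes passed the filter on low counts between SNs at 3 dpc and contralateral SNs, with 2 called higher and 1 called lower. A gene was called at a change of at least 2-fold and an adjusted p of at most 0.05. Over all 16667 genes tested in that comparison, 14.6% were called higher and 13.6% lower. Against uncrushed SNs 3 of the 10 genes were tested, of which Retnlg was called higher and Lcn2 lower, beside 15.3% and 21.1% of 17433 genes. Between contralateral and uncrushed SNs 2 of the 10 genes were tested and neither was called, as 0% of 17722 genes were called in either direction by edgeR. In that comparison 3165 genes had an unadjusted p under 0.05, and DESeq2 called 31 genes, none of them a member. Csf3r was lower in every contralateral SN than in every uncrushed SN there, with a log2 difference of -0.68 (SE 0.21, adjusted p = 0.158), and Lcn2 differed by -0.24 (SE 0.31, adjusted p = 0.699).

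For Dicer iKO 2 of the 10 genes were tested, with Csf3r called higher and Lcn2 lower, beside 7.37% and 1.64% of 13045 genes. For Dgcr8 iKO 3 were tested, with Retnlg and Csf3r called higher and Lcn2 lower, beside 13.4% and 6.99% of 13252 genes. The median log2 fold change over all genes was between -0.06 and 0 in each of these comparisons. The members that passed the filter are few, and Retnlg passed it only through the group in which it was high.

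**Figure D3:**
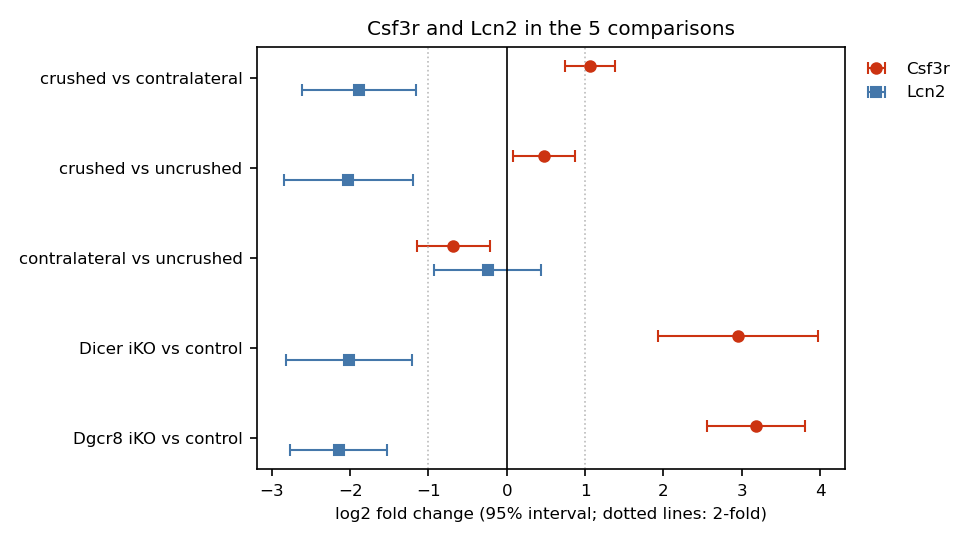
Log2 fold changes of Csf3r (circles) and Lcn2 (squares) with 95% intervals in the 5 comparisons, dotted lines at 2-fold. The Lcn2 intervals lie below 0 in the 4 comparisons with crushed or mutant nerves, and Csf3r is at 1.06 after crush against contralateral SNs and at 2.95 and 3.18 in the mutants.

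The size of the Csf3r change differed between lesion and mutants. The crush effect against contralateral SNs was smaller than the Dicer iKO effect by 1.86 on the log2 scale (interval -2.74 to -0.98, edgeR quasi-likelihood interaction term, adjusted p = 0.00204), and the difference to the Dgcr8 iKO effect was -2.07 (interval -2.75 to -1.39, adjusted p = 7.34e-05). Of all genes, 40.4% and 37.4% passed the same tests. The Lcn2 effects were not found to differ, at 0.18 (interval -0.93 to 1.28) against Dicer iKO and 0.31 (interval -0.67 to 1.28) against Dgcr8 iKO. Between the mutants the Csf3r effects differed by 0.23 (interval -1 to 1.46) and the Lcn2 effects by -0.13 (interval -1.09 to 0.84), with 0.0148% of 13552 genes passing. These intervals leave room for differences of more than 1 on the log2 scale.

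Most Csf3r counts came from the transcript Csf3r-201, which held 77.1% of them at 3 dpc, 82.9% in contralateral SNs and 99.3% in uncrushed SNs. In Dicer iKO and Dgcr8 iKO it held 95.9% and 79.1%. Csf3r-202, the other protein-coding transcript, held 20.1% at 3 dpc, 16.1% in contralateral SNs, 20.9% in Dgcr8 iKO and 37.1% in the Dgcr8 controls. Most Lcn2 counts likewise fell on the protein-coding Lcn2-201, with 63.3% at 3 dpc, 84.4% in contralateral SNs and 99.3% to 100% in the 4 groups of the mutant experiment. The summed counts of Csf3r were whole numbers in only 4 of 23 libraries and those of Mpo in 17, so some of their reads were shared with other loci and their levels are less certain than those of the other 8 genes. The shares are RSEM's estimates summed over the libraries of a group and were not tested.

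Other genes of the neutrophil programme were examined as lists. Over all genes tested, 14.6% were called higher at 3 dpc against contralateral SNs, 7.37% in Dicer iKO and 13.4% in Dgcr8 iKO. Of 4 azurophil granule genes only Serpinb1a, an inhibitor of granule proteases, passed the filter. It rose by 1.77 on the log2 scale at 3 dpc against contralateral SNs (edgeR quasi-likelihood adjusted p = 0.000126) and by 1.88 in Dgcr8 iKO (adjusted p = 3.93e-05), and was at 1.19 in Dicer iKO (adjusted p = 0.0506). The protease gene Prtn3 was too low for this test, but had 9, 11, 11 and 12 counts at 3 dpc, 2, 0, 3 and 0 in contralateral SNs and 4, 4 and 3 in uncrushed SNs. The SNs at 3 dpc thus lay above all control SNs in this gene, unlike in Elane and Mpo. The protease gene Ctsg and the promyelocyte gene Ms4a3 had at most 11 counts in any library.

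Of 10 genes of specific and gelatinase granules, 4 were tested at 3 dpc against contralateral SNs and 3 rose. These were Chil3, a chitinase-like protein also made by monocytes (log2 fold change 6.24, 36 to 74 counts at 3 dpc against 0 to 1), the gelatinase Mmp9 (4.47) and haptoglobin, Hp (3.78), with edgeR quasi-likelihood adjusted p-values of at most 6.99e-07. Against uncrushed SNs 4 of 6 tested genes rose, Cd177, a surface protein of neutrophils, being the fourth (1.88). There Chil3, Hp and Cd177 passed the filter only through their level at 3 dpc. Mmp9 went the other way in the mutants. It was at 12.1 to 23.4 CPM at 3 dpc against 0.308 to 1 CPM in contralateral SNs, but at 0.666 to 1.21 CPM in Dicer iKO against 2.16 to 8.33 CPM in the controls, where it fell by 2.71 on the log2 scale (adjusted p = 0.0173).

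In Dgcr8 iKO Mmp9 fell by 1.19 on the log2 scale (edgeR quasi-likelihood adjusted p = 0.0161), as did Pglyrp1, a bactericidal granule protein (1.31, adjusted p = 0.0371). The collagenase Mmp8 rose there by 4.46 (30 to 43 counts against 0 to 3, adjusted p = 0.000227) and Hp by 3.89 (adjusted p = 7.69e-06). Olfm4, Fcnb, Slpi and Itgb2l were not tested in any 2-group comparison. The medians of this list over the genes tested were 4.12 at 3 dpc against contralateral SNs (4 genes), -0.76 in Dicer iKO (2 genes) and 1.35 in Dgcr8 iKO (4 genes), beside -0.06, -0.01 and -0.01 over all genes. They cover different genes that passed the filter and are not compared. Against contralateral SNs, Chil3, Mmp9 and Hp passed it only through their level at 3 dpc. In Dgcr8 iKO, Mmp8 and Hp passed it only through the mutants.

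Among 12 surface genes of mature neutrophils, 2 were tested at 3 dpc against contralateral SNs and 1 rose, the lectin Clec4e (1.36 on the log2 scale, edgeR quasi-likelihood adjusted p = 1.37e-05). Against uncrushed SNs 5 were tested, and Clec4e was at 0.74 (adjusted p = 0.0277), below the 2-fold limit. Ly6g, the antigen most used to define mouse neutrophils, had 0 to 3 counts in every crush library and 0 counts in every mutant library. Cxcr2, the receptor for neutrophil-attracting chemokines, did not rise anywhere. It was at 14.5 to 17.4 CPM at 3 dpc, 19.2 to 28.1 CPM in contralateral SNs and 27.9 to 39.4 CPM in uncrushed SNs, and fell by 1.02 on the log2 scale against the latter (adjusted p = 1.94e-05). In Dgcr8 iKO it was at 6.96 to 8.87 CPM against 25.3 to 61.2 CPM in controls, a fall of 2.46 (adjusted p = 6.21e-05). Clec4d, a further lectin, had 8 to 55 counts at 3 dpc against 0 to 1 in contralateral and in uncrushed SNs, and rose against the latter (adjusted p = 0.000546). It rose in both mutants as well, by 4.39 in Dicer iKO (55 to 66 counts against 1 to 6) and from 0 counts in each control library to 38 to 58 counts in Dgcr8 iKO. In each of these comparisons Clec4d passed the filter on low counts only through the crushed or the mutant libraries.

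All 4 tested transcription factors of the neutrophil programme rose at 3 dpc against both control groups. Against contralateral SNs the log2 fold changes were 1.81 for Cebpa, 2.95 for Cebpb, 1.64 for Cebpd and 2.76 for Spi1, which encodes PU.1 (edgeR quasi-likelihood adjusted p at most 1.15e-06). These factors also act in monocytes and macrophages. Cebpe and Gfi1, which are needed for granule formation in neutrophils, were at 11 counts or fewer in every library and were not tested. In Dgcr8 iKO Cebpa (3.06), Cebpb (2.25) and Spi1 (2.69) rose, whereas in Dicer iKO Cebpa rose (1.87, adjusted p = 0.00917) and Spi1 was at 1.61 (adjusted p = 0.0543).

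Of 8 ligands that attract neutrophils or drive their production, 3 were tested at 3 dpc and all rose against contralateral SNs. These were the chemokines Cxcl1 (log2 fold change 3.79) and Cxcl5 (4.5) and the cytokine Il1b (2.86), with edgeR quasi-likelihood adjusted p-values of at most 4.35e-06. All 3 passed the filter on low counts only through their level at 3 dpc, so that their number says little about the list. Csf3, the ligand of Csf3r, had at most 1 count in each crush library and 0 counts in each mutant library. Cxcl5 also rose in Dgcr8 iKO (5.41, 16 to 23 counts against 0 to 1, adjusted p = 0.000244), where it passed the filter only through the mutants.

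Most macrophage markers were higher in the groups in which Csf3r was called higher, but also at 3 dpc against uncrushed SNs, where Csf3r was not called. Against uncrushed SNs 7 of 8 macrophage markers and 4 of 5 monocyte markers rose, and the macrophage sum was 160 to 176 CPM in uncrushed SNs. Of 8 macrophage markers 7 rose at 3 dpc against contralateral SNs, and their sum was 436 to 786 CPM against 98.1 to 190 CPM. The sum was lowest in the 3 dpc library and in the contralateral library in which Csf3r was lowest. Of 5 monocyte markers 4 rose, with sums of 130 to 193 CPM against 5.58 to 10.9 CPM. Of these, Chil3, Plac8 and F10 passed the filter on low counts only through their level at 3 dpc, so that their number says little about the list. In Dicer iKO 5 of 8 macrophage markers rose (sum 1260 to 2000 CPM against 291 to 779 CPM), and the highest control sum was in the library Dicer control 1, which also had the highest Csf3r of its group. None of the 3 monocyte markers tested in Dicer iKO was called, and Retnlg had 0, 0 and 3 counts there. In Dgcr8 iKO 6 macrophage markers rose and Cd163 fell (896 to 2000 CPM against 299 to 354 CPM), and 2 of 3 tested monocyte markers rose. The Dgcr8 iKO library with the most Retnlg, at 1.91 CPM (20 counts against 13 and 12), had the lowest macrophage sum of its group. At 3 dpc the order was different. The library with the least Retnlg there, at 8.99 CPM, had the lowest macrophage sum (436 CPM) and the lowest monocyte sum (130 CPM). Whether macrophages or monocytes carry part of the Csf3r or Retnlg signal was not tested.

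Of the other blood and tissue lists, 4 erythroid genes fell at 3 dpc against both control groups and in Dgcr8 iKO, and 0 of 5 were called in Dicer iKO. Of 4 eosinophil markers, Siglecf and Ccr3 rose at 3 dpc, with sums of 12.8 to 25.6 CPM against 1.96 to 4.72 CPM in contralateral SNs. Siglecf passed the filter on low counts only through its level at 3 dpc. Of 5 mast cell markers 3 fell at 3 dpc against contralateral SNs, whereas against uncrushed SNs 1 was tested and not called, and 4 rose in Dgcr8 iKO. Their sum was 4.95 to 39 CPM in contralateral and 6.63 to 18.2 CPM in uncrushed SNs. SC markers fell at 3 dpc (4 of 4 against contralateral SNs) and in Dgcr8 iKO (3 of 4). Adipocyte and skeletal muscle markers were too low to be tested in the 5 comparisons between 2 groups, and the platelet and keratinocyte lists showed changes in both directions or in 1 gene only. The proliferation genes Mki67 and Top2a rose at 3 dpc and in both mutants. How these lists relate to the members was not tested.

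**Figure D4:**
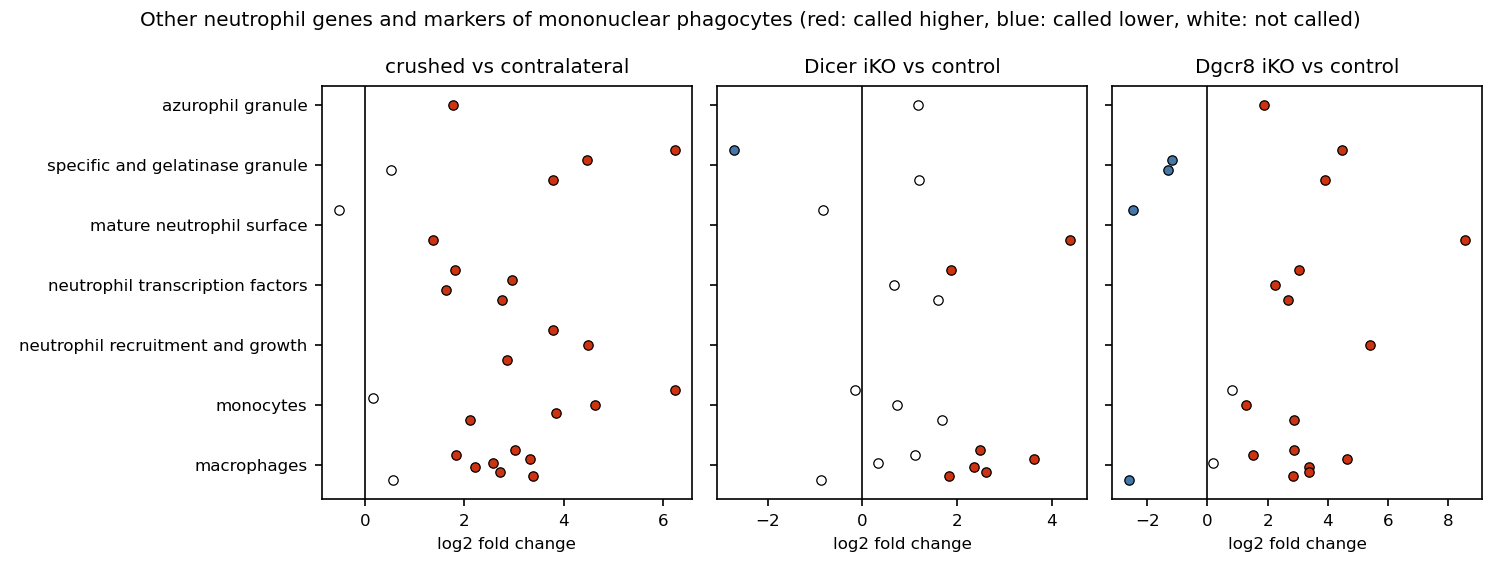
Log2 fold changes of the tested genes of 5 neutrophil lists and of the monocyte and macrophage markers in 3 comparisons, each point a gene (red called higher, blue called lower, white not called). Mmp9 is at 4.47 after crush and at -2.71 in Dicer iKO, and Clec4d is at 4.39 in Dicer iKO.

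The genes whose pattern over libraries was most like that of single members were sought among genes of at least 1 CPM on average. Over the 11 crush libraries Retnlg was closest to Alox15, which makes lipid mediators (Pearson's r = 0.996 on log2(CPM + 1)), and to Kng2, Fetub, Fn1 and Fcgr4 (r = 0.993 to 0.994). Over the 12 mutant libraries Csf3r was closest to Dock2, a leukocyte migration factor (r = 0.993), and to Cd4, Arl4c, Arl11 and Abcc3 (r = 0.99 to 0.993). Csf3r was closest over the crush libraries to other genes, Gm43549, Rnase6, Raph1, Ltbp1 and Osbpl6 (r = 0.956 to 0.978). Retnlg was closest over the mutant libraries to Il12rb1, Igf2bp2, Apba2, Pou3f1 and Tdg (r = 0.937 to 0.955). Lcn2 was closest to Lmf1 in the crush libraries (r = 0.969) and to Stambpl1 in the mutant libraries (r = 0.968). The mean of Retnlg, Lcn2 and Csf3r, each standardized, was closest to Svep1 (r = 0.967) and to Tdg (r = 0.953). These correlations are descriptions across libraries that share group differences and depth.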

How the data were processed

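RNA of whole SNs was sequenced in 23 libraries, each from a separate mouse apart from the contralateral SNs of crushed mice. The authors trimmed reads, aligned them to GRCm38 with STAR and quantified Ensembl transcripts with RSEM. The deposited expected counts (estimated per transcript, not normalized) were summed per gene and rounded. The deposited TPM values served only to order genes within a group, and the FPKM were not used. For the crush libraries the labels give a SMARTer Stranded pico input kit and the paper's methods TruSeq. One uncrushed library carries the number 3 in its title, which was followed, and 4 in its description.

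Comparisons were fitted with edgeR 4.0.16 (R 4.3.3) over genes passing filterByExpr (minimum count 10), with TMM normalization, quasi-likelihood tests, Benjamini-Hochberg adjustment over all genes tested, and standard errors derived from the F statistic. Interaction terms were called at an adjusted p of at most 0.05. Genes below the filter were compared by exact two-sided permutation tests on CPM. P-values measure the spread between nerves, and crushed and contralateral SNs were treated as independent although they share mice. The procedure was tested on simulated data. No libraries were copies (27 replicate pairs, chi-square per degree of freedom 4.36 to 42.4).

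Genes named are the 10 members, called or near-absent genes of 5 neutrophil lists, marker lists, and the genes most like a member. Members and lists were chosen with earlier results of these data known, and Prtn3 and the Retn family were singled out after their values were seen. Some genes of the marker and surface lists are not reported here. Alternatives were RLE normalization, DESeq2 1.42.0, other filters, a replicate block, all groups in one fit, a stricter threshold and leaving out each library.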

Additional observations from a re-analysis of the deposited data

Results flagged for a closer look

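Csf3r in the contralateral library 2 was 4.32 CPM, far from the other contralateral libraries at 6.22 to 6.46 CPM, and Elane in the contralateral library 1 was 0.0943 CPM (1 count) against 0 in the others. With 4 libraries, chance marks about 1 in 20 groups in this way, a rate not worked out for counts as low as those of Elane. The summed macrophage markers were lowest among contralateral libraries in that same library 2, at 98.1 CPM, and their part in the Csf3r value was not tested.

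The Csf3r effect of crush against contralateral SNs differed from that of Dicer iKO by -1.86 and from that of Dgcr8 iKO by -2.07 on the log2 scale (edgeR quasi-likelihood interaction terms). Without the library Dicer control 1 the first difference was -2.63. The labels and the paper's methods differ on whether the experiments used the same library kit, and any effect of the experiment cannot be told apart from that of the lesion.

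Of the neutrophil lists, Mmp9 (7.23), Cxcl1 (3.24), Hp (2.63) and Cebpb (2.31) had larger crush effects than Dicer iKO effects on the log2 scale. Against Dgcr8 iKO the crush effect was larger for Mmp9 (5.72), Cxcl1 (2.77), Cxcr2 (1.97) and Pglyrp1 (1.86). It was smaller for Mmp8 (-3.35) and Cebpa (-1.21). Since 40.4% and 37.4% of all genes passed these tests, such a difference is common in these data.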

How the results depend on the processing

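Of the values of single members under the alternatives, 316 kept their side of the threshold, 2 lost the call and 1 gained it. No called value changed its direction, and the direction of values that were not called was not followed. One kind of change was a lost call. The 2 lost calls were those of Csf3r at 3 dpc against contralateral SNs, at 0.97 without the 3 dpc library 2 and 0.95 without the contralateral library 2. Without a filter on counts 5 members were called in that comparison (S100a8 and Mpo added), and with at least 10 counts in every library 1 was called (Csf3r, the only one tested). With that strict filter 0 members were called against uncrushed SNs, where Retnlg and Lcn2 could not be tested, and 1 in Dicer iKO. DESeq2 called 2 members in the difference between crush and Dicer iKO, Retnlg being the one added (log2 difference 7.16, adjusted p = 0.000475). The contralateral and Dicer control libraries held no Retnlg count, so the size of that difference could not be estimated. Leaving out each library in turn gave 2 to 3 members called at 3 dpc against contralateral SNs, and 2, 0, 2 and 3 for crushed against uncrushed SNs, contralateral against uncrushed SNs, Dicer iKO and Dgcr8 iKO.

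The contralateral SNs came from crushed mice, but the sources do not say that equal numbers mark the same mouse. The deviations of same-numbered libraries correlated weakly (16 pairs, r = -0.204 to 0.226, 4 over 0.1), and the numbers were not used as pairs. With the replicate number as a block, 3, 2, 0, 2 and 3 members were called in the 5 comparisons, as without it. Counts over all genes were less stable. In Dicer iKO 1175 genes were called, but 640 with the block, 580 at an adjusted p of 0.01 and 572 without Dicer iKO 3. Between contralateral and uncrushed SNs 0 became 141 without a filter, 31 with DESeq2 and 95 without Uncrushed 2. Between the mutant effects 2 became 235 with DESeq2, 20 without a filter and 401 without Dicer control 3. The median of all genes against uncrushed SNs was -0.385 (log2) without a filter. Depth limits 7 of the 10 genes, which lay near 3 counts per library.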

Other observations

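Among SNs at 3 dpc the mRNA of Retnlg exceeded that of its companions in mature neutrophils by far, with 651 counts over the 4 libraries against 19 for S100a8 and 19 for S100a9. Per length the levels were 5.03, 0.2 and 0.177 TPM. In Dicer iKO there were 3 counts of Retnlg and 7 of S100a8 over 3 libraries, both near the detection limit, and in Dgcr8 iKO 45 and 9. The difference of this ratio between experiments was not tested.

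Of the resistin family relatives of Retnlg, Retnla was at 0.173 to 0.415 CPM in Dicer iKO against 4.05 to 6.35 CPM in the controls, and at 0 to 1.05 CPM in Dgcr8 iKO against 3.31 to 31.8 CPM in the controls, without overlap in either. Retn had 0 to 24 counts in Dgcr8 iKO against 0 to 2 in the controls, and 0 in each Dicer iKO library against 0 to 27 in the controls. Retnlb had at most 3 counts in any library. None of these differences was tested.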
